A study of Homo sapiens with 15 samples.

Results

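The 35 genes described here encode the route by which cells take up glucose and break it down: 2 glucose transporters, the enzymes of glycolysis, the enzymes of the pentose phosphate branch, and the pyruvate dehydrogenase complex with the kinases that switch it off. They were picked by gene symbol from a fixed list, which leaves out the genes of lactate handling, and all 35 were found among the 60612 genes of the deposited table. RNA-seq was carried out on the human glioma cell lines U87 and U251, both long established, in 15 libraries forming 5 groups of 3. The groups are U87 cells labelled as wild type (here U87 control), U87 cells labelled with the short hairpin RNA 1812, U251 cells labelled as wild type (U251 control), U251 cells with hairpin 1812 and U251 cells with hairpin 1813. Both hairpins are directed at LAMP2A, the LAMP2 isoform that serves as receptor in chaperone-mediated autophagy, and were introduced by stable transfection. The labels name no drug treatment, no control hairpin and no empty vector, so any effect of carrying a vector cannot be told apart from that of the hairpin. They do not say whether lines with a hairpin were clones or pools, nor whether the 3 replicates are separate cultures, so p-values here reflect the variation among libraries alone.

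Glucose enters through SLC2A family transporters, is trapped by hexokinase, and is committed to glycolysis by phosphofructokinase; the lower enzymes turn the resulting triose phosphates into pyruvate and yield ATP. The pentose phosphate branch makes NADPH and ribose phosphate from glucose 6-phosphate, and pyruvate enters the mitochondrial citrate cycle through pyruvate dehydrogenase, which the PDK kinases inhibit. Gliomas, like many tumours, are known for high glycolysis, and several genes of the pathway are known targets of the hypoxia-inducible factors.

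Libraries held between 14002652 and 18924072 counts. Levels are given as scaled FPKM, meaning CPM on the TMM-adjusted library size divided by exonic length in kilobases. The values lie within 0.913 to 1.13 times the deposited FPKM. The exonic length is a single deposited value per gene, such as 14845 bases for PDK1 and 4544 for PDK4. It is not the length of the transcripts present. Orders and shares between genes depend on it, while fold changes of a gene do not. A gene passed a comparison when its Benjamini-Hochberg adjusted p in edgeR's quasi-likelihood test, adjusted over the 16841 genes that passed the filter on low counts, was under 0.05. All 35 genes passed that filter. Control replicates 2 and 3 stood apart from the other libraries in both lines: the mean exonic length of the genes counted, weighted by counts, was 6.53 to 6.77 kb in those 4 libraries and 5.61 to 5.92 kb in the other 11. Log2 fold changes against control replicate 1 alone are therefore given where that fit changed a call or moved a called value by over 1.5 times. It leaves 1 control library per line, so its p-values measure no spread among controls and are not given. LAMP2, counted over the whole gene and so over all its isoforms, stood at 27.7 scaled FPKM in U87 control and 28.4 in the U87 libraries labelled 1812 (adjusted p = 0.892). LAMP2 had 2893, 4252 and 4714 reads in the U87 controls and 4000, 4360 and 3941 in the U87 libraries labelled 1812. U87 control replicate 1 was the lowest of these. In U251 LAMP2 fell from 73.8 to 33.9 with hairpin 1812 (log2 fold change -1.12, adjusted p = 0.00353), and stood at 42.8 with hairpin 1813 (adjusted p = 0.0907). Whole-gene counts do not show how much of isoform A was left. Of the glial markers, VIM was high in every library, and NES (358 to 5544 reads) and SLC1A3 (624 to 2048) were detected in all. SOX2 and GFAP were near 0 in U87, S100B and OLIG2 had at most 27 and 26 reads, and AQP4 was under 1 scaled FPKM throughout. In U87 and U251 control, fibroblast markers summed to 99.5 to 200 and 54.8 to 108 scaled FPKM. Myeloid ones summed to 4.12 to 5.25 and 0.386 to 0.761, and neuronal ones to 3.46 to 9.67 and 10.1 to 10.9. Epithelial ones summed to 0.746 to 1.24 and 10.4 to 11.4, and endothelial ones to 0.196 to 0.583 and 0.140 to 0.220. Under 1 scaled FPKM in all libraries were 3 of 4 myeloid, 2 of 3 epithelial and all 3 endothelial genes. Most myeloid reads in U87 control lay in CSF1R (255 to 358). In U251 control most epithelial reads lay in KRT18 (591 to 632) and most fibroblast ones in COL1A2 (9988 to 23031). A sum carried by 1 gene does not show that a cell type was present. The red cell genes were listed at 0.

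GAPDH, the triose phosphate dehydrogenase, had the highest scaled FPKM of the 35 genes in every library. By that measure it ranked 8th among all 60612 genes in U87 control and 15th in U251 control. In reads PKM exceeded GAPDH in some libraries, such as U87 control replicate 2 with 61518 against 59853. Next by scaled FPKM came ENO1, PKM and TPI1, which encode the main enolase, pyruvate kinase and triose phosphate isomerase. In U87 control these stood at 805 ± 384, 668 ± 302 and 653 ± 386 scaled FPKM (SD, n = 3), so their order did not exceed their spread. In U251 control ENO1 stood at 540 ± 109, PKM at 462 ± 90.0 and TPI1 at 340 ± 103 scaled FPKM. At the other end stood ALDOC in U251 control, at 0.311 ± 0.0797, and PDK4 in U87 control, at 0.387 ± 0.0253 scaled FPKM. The 35 genes together took 1.49% to 3.24% of all counts in a library, highest in U87 control replicate 1 and lowest in U251 control replicate 3.

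**Figure D1:**
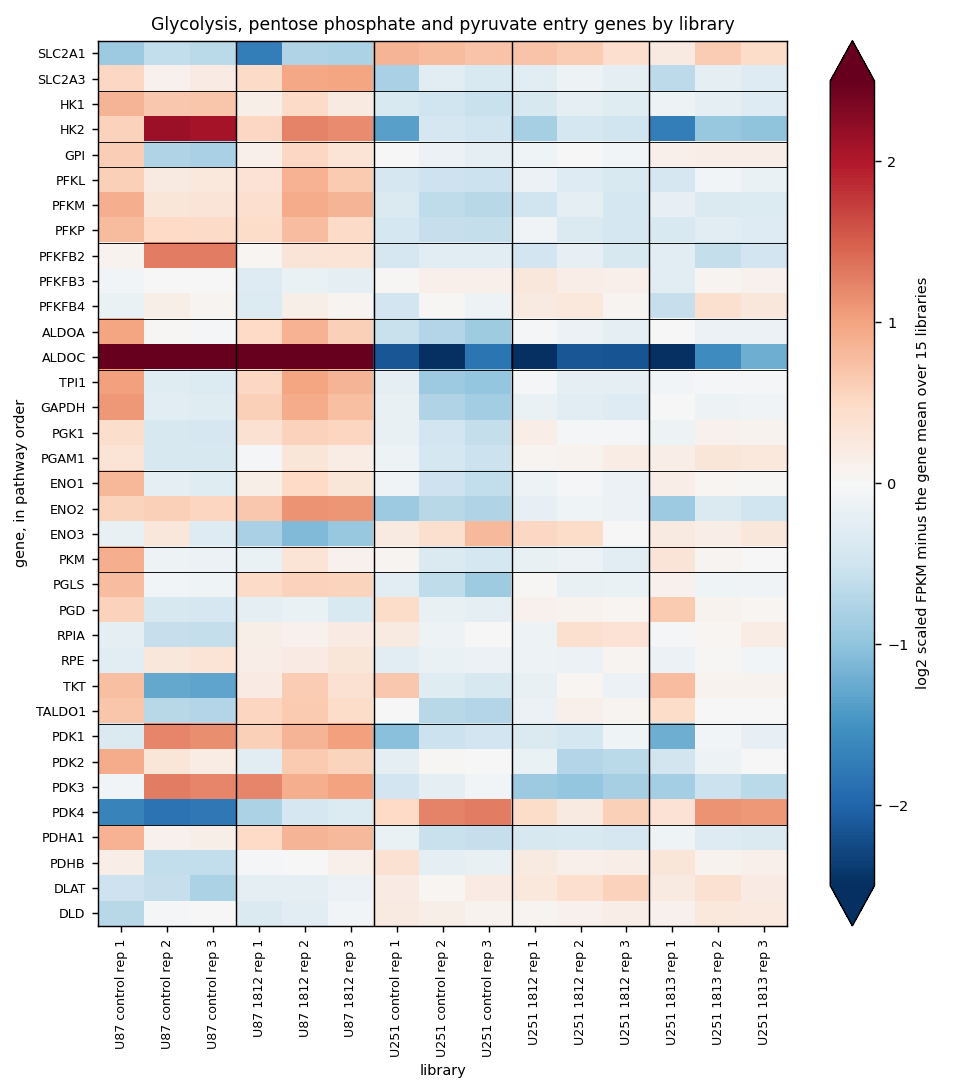
Each row is 1 of the 35 genes in pathway order and each column 1 of the 15 libraries; colour is the log2 scaled FPKM minus the gene's mean over the 15 libraries, with differences beyond 2.5 drawn in the end colours. ALDOC and HK2 are red in the 6 U87 libraries, SLC2A1 and PDK4 are red in the 9 U251 libraries, and within U87 control replicate 1 differs from replicates 2 and 3 in many rows.

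The first question was how the lines differ in this pathway without a hairpin. Of the 35 genes, 5 were higher and 16 lower in U251 control than in U87 control, and 14 did not pass. These lines differ widely, with 50.0% of all tested genes passing (24.0% higher and 26.0% lower), so the number passing is not far from that background, while 16 of 35 lie on the lower side. The median log2 fold change was -0.56 over the 35 genes and -0.04 over all genes tested. In bulk RNA, fewer cells of a type and less RNA per cell cannot be told apart.

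At uptake the lines differed in the level of both transporter genes. SLC2A1, which encodes GLUT1, the widely expressed glucose transporter, stood at 13.4, 16.5 and 15.7 scaled FPKM in U87 control and at 45.5, 43.7 and 41.5 in U251 control. It was 2.87-fold higher in U251 (log2 fold change 1.52, SE 0.21, adjusted p = 3.4e-05), and no U251 library overlapped a U87 library. SLC2A3, which encodes GLUT3, a transporter of high glucose affinity typical of neurons, went the other way, with 13.2, 9.84 and 10.6 scaled FPKM in U87 control and 5.21, 7.53 and 7.06 in U251 control (log2 fold change -0.76, SE 0.18, adjusted p = 0.00302). Of the summed level of both genes, SLC2A1 made up 37.2% to 62.6% in the 6 U87 libraries and 81.3% to 89.7% in the 9 U251 libraries. The sum itself was 26.4 ± 0.177 scaled FPKM in U87 control and 50.2 ± 1.45 in U251 control (SD, n = 3). U251 control held more mRNA of both genes together, and SLC2A1 was the larger part in all 6 control libraries, from 50.4% in U87 control replicate 1.

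The trapping step showed the reverse order. HK1, the broadly expressed hexokinase, stood at 148, 132 and 133 scaled FPKM in U87 control and 63.4, 58.1 and 55.9 in U251 control, 2.33-fold lower in U251 (log2 fold change -1.22, SE 0.13, adjusted p = 2.1e-06). HK2, the inducible hexokinase of muscle, fat and many tumours, stood at 29.8, 88.3 and 85.0 in U87 control and 7.84, 14.99 and 14.1 in U251 control, 5.50-fold lower (log2 fold change -2.46, SE 0.38, adjusted p = 7.7e-05). The groups did not overlap for either gene, although HK2 varied widely within U87 control. HK1 was the larger part of the summed hexokinase level in every library, from 59.9% in U87 control replicate 2 to 92.6% in U251 1813 replicate 1, and the shares of the lines overlapped. The summed level was 205 ± 24.0 scaled FPKM in U87 control and 71.4 ± 1.54 in U251 control. GPI, which converts glucose 6-phosphate to fructose 6-phosphate, did not pass, at 36.0 ± 22.2 against 36.7 ± 2.88 scaled FPKM (log2 fold change 0.03, 95% interval -0.58 to 0.64). Its result turned on U87 control replicate 1. Without that library GPI was higher in U251 control (0.67, adjusted p = 0.000225), and against control replicate 1 alone its log2 fold change was -0.63.

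**Figure D2:**
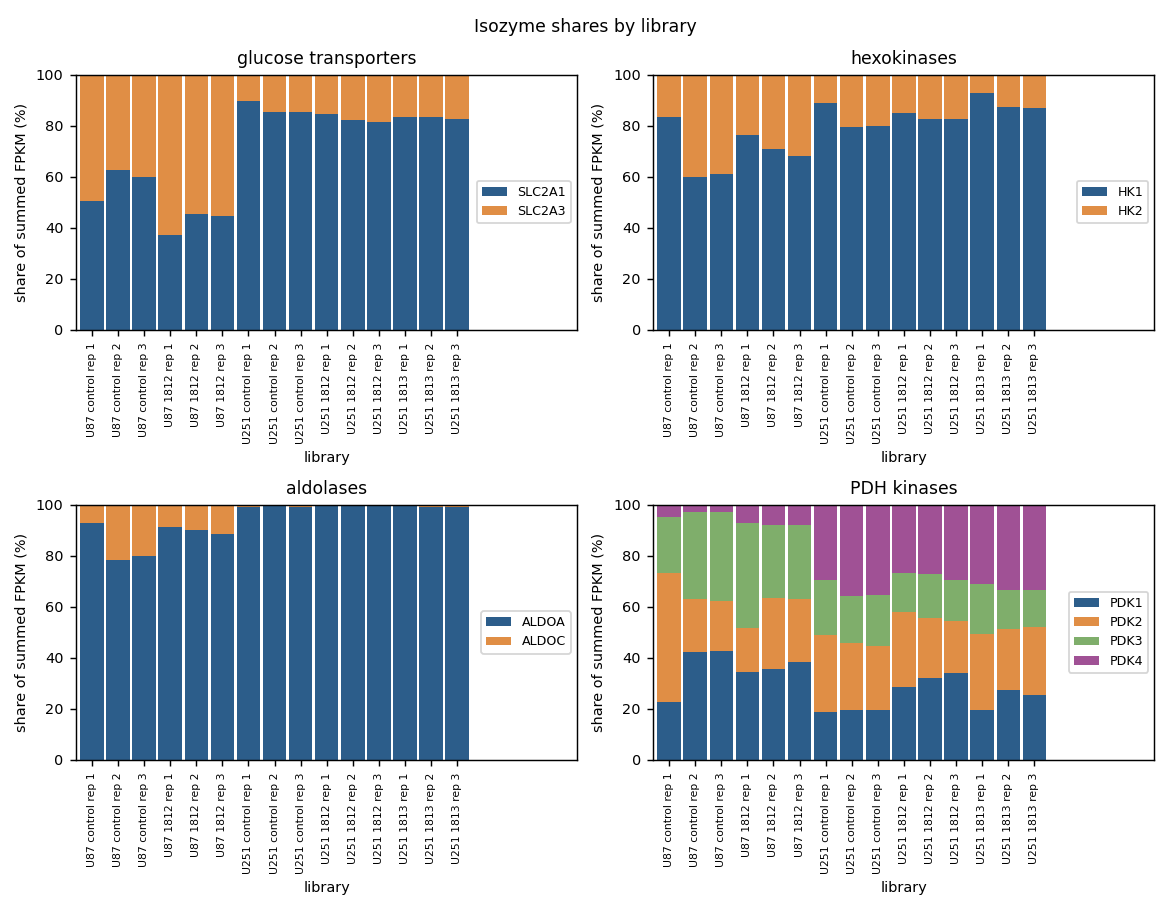
Each bar is 1 of the 15 libraries and the segments are the shares, in percent of summed FPKM, of the genes of 1 enzyme or transporter set. The SLC2A1 share is 37.2% to 62.6% in U87 and 81.3% to 89.7% in U251, the ALDOC share is 7.05% to 21.7% in U87 and at most 1.04% in U251, the PDK4 share is 2.71% to 7.92% in U87 and 26.8% to 35.7% in U251, and the hexokinase shares of the lines overlap.

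All 3 phosphofructokinase genes were lower in U251 control. PFKP, the platelet form, was the most abundant, at 83.7, 67.9 and 67.6 scaled FPKM in U87 control and 35.7, 32.4 and 32.0 in U251 control (log2 fold change -1.13, SE 0.14, adjusted p = 1.2e-05). PFKM, the muscle form, was 2.14-fold lower (log2 fold change -1.10, SE 0.18, adjusted p = 0.00017) and PFKL, the liver form, 1.82-fold lower (log2 fold change -0.87, SE 0.15, adjusted p = 0.00028). The make-up of the step was alike in both lines, with PFKP at 62.8% to 70.6% of the summed level in U87 and 65.7% to 70.5% in U251, while the sum was 105 ± 15.7 scaled FPKM in U87 control and 49.7 ± 3.45 in U251 control. Among the bifunctional PFKFB enzymes, which set the level of fructose 2,6-bisphosphate, the allosteric activator of phosphofructokinase, PFKFB2 was lower in U251 control (1.56 ± 0.0955 against 3.83 ± 1.54 scaled FPKM, log2 fold change -1.29, SE 0.25, adjusted p = 0.0005). With control replicate 1 alone the log2 fold change of PFKFB2 was smaller, at -0.50. PFKFB3 and PFKFB4 did not pass, with log2 fold changes of 0.11 (95% interval -0.15 to 0.37) and -0.20 (95% interval -0.67 to 0.27); PFKFB3 was the most abundant of the 3 in every library, at 56.7% to 70.0% of their sum.

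The widest difference among the 35 genes was at aldolase. ALDOC, the aldolase of brain, lies on chr17:28573115-28576948 (GRCh38, minus strand) and stood at 10.3, 19.7 and 16.6 scaled FPKM in U87 control against 0.313, 0.230 and 0.389 in U251 control. It was 49.8-fold lower in U251 control (log2 fold change -5.64, SE 0.39, adjusted p = 2.2e-08), with a log2 fold change of -5.03 against control replicate 1 alone. In counts this was 400, 742 and 702 reads in U87 control and 14, 12 and 18 in U251 control, and in none of the 9 U251 libraries did ALDOC exceed 23 reads. ALDOA, the main aldolase of muscle and of most cells, was also lower in U251 control, at 46.8, 41.4 and 37.1 scaled FPKM against 136, 70.7 and 66.7 (log2 fold change -1.12, SE 0.22, adjusted p = 0.00074). ALDOC made up 7.05% to 21.7% of the aldolase level in U87 libraries and 0.22% to 1.04% in U251 libraries.

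RefSeq promoter windows (GRCh38.p14, 250 bases before to 50 after a transcript start, 300 bases) were found for 33 of the 35 genes, 58 windows in all; SLC2A3 and PFKFB2 had none. They were searched on both strands for ACGTG and GCGTG, the core letters of the hypoxia response element. ACGTG was present in 21 of the 58 windows (36.2%) and in 21.4% of all 35116 windows, and GCGTG in 23 (39.7%) and in 36.5% of all windows; genes with more windows have more chances to hold a match. Counted by gene, 17 of 33 (51.5%) had ACGTG in a window, against 24.9% of all 27305 genes, and 21 (63.6%) had GCGTG, against 40.6%. Windows of the 4 genes below are shown because ALDOC and ENO2 were among the genes much lower in U251, and SLC2A1 and PDK4 the 2 most raised there. Each is printed 5′ to 3′ on the strand of its gene. Capitals mark ACGTG or GCGTG on either strand (read as CACGT or CACGC on the strand printed); CACGTG in the ALDOC window matches ACGTG on both strands and counts as 2. The ALDOC window holds 3 matches to ACGTG and 2 to GCGTG, that of ENO2 holds 1 to ACGTG, that of SLC2A1 holds 1 to GCGTG, and that of PDK4 holds neither. A match is a description of these letters and not a binding site.
ALDOC, chr17:28576846-28577145, minus strand: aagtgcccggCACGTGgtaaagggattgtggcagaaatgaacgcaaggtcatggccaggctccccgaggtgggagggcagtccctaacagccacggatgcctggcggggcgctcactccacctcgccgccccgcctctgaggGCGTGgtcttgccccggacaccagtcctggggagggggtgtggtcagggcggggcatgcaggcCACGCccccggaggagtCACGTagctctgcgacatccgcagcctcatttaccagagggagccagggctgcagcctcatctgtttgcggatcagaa
ENO2, chr12:6914330-6914629, plus strand: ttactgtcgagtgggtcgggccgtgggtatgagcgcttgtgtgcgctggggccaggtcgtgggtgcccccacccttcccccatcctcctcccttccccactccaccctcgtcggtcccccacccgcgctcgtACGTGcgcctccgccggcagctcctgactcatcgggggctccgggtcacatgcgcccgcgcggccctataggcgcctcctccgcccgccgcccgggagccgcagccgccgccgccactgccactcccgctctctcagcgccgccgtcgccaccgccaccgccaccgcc
SLC2A1, chr1:42958819-42959118, minus strand: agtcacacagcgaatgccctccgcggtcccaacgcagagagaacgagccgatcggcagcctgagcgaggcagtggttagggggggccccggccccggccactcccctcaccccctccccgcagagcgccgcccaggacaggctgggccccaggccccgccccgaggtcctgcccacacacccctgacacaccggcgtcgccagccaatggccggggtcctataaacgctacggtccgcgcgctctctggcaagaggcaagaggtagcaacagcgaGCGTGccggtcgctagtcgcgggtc
PDK4, chr7:95596467-95596766, minus strand: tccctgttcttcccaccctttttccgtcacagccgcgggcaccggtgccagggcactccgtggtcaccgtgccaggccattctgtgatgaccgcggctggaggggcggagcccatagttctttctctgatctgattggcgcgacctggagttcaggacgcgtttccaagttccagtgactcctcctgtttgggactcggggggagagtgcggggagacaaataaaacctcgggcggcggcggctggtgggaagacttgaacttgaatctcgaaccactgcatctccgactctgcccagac

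Among the lower enzymes of glycolysis, 3 of 8 genes were lower in U251 control, 1 was higher and 4 did not pass. GAPDH stood at 4376, 1728 and 1672 scaled FPKM in U87 control and 1815, 1235 and 1134 in U251 control (log2 fold change -0.89, SE 0.31, adjusted p = 0.0246). TPI1 stood at 1099, 434 and 426 in U87 control and 459, 286 and 275 in U251 control (log2 fold change -0.94, SE 0.31, adjusted p = 0.0207). For both genes replicate 1 of U251 control exceeded replicates 2 and 3 of U87 control, so the groups overlapped. Without U87 control replicate 1 neither passed (GAPDH -0.28, adjusted p = 0.172; TPI1 -0.33, adjusted p = 0.141), and both also failed without U251 control replicate 2 (adjusted p = 0.0876 and 0.0836) or replicate 3 (0.0986 and 0.087). Against replicate 1 alone in each line the log2 fold changes of GAPDH and TPI1 were -1.27 and -1.26. ENO2, the enolase known as a neuronal marker, stood at 47.7, 48.8 and 46.9 scaled FPKM in U87 control and 17.2, 20.0 and 19.3 in U251 control, with no overlap and little spread (log2 fold change -1.34, SE 0.16, adjusted p = 5.3e-06).

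ENO3, the enolase of muscle, was at a low level in both lines, 1.27 ± 0.287 scaled FPKM in U87 control and 1.86 ± 0.404 in U251 control (log2 fold change 0.56, SE 0.22, adjusted p = 0.0491). Its groups overlapped, and the call ended without U87 control replicate 1 or 3 or U251 control replicate 2 or 3 (adjusted p = 0.0746, 0.166, 0.0667 and 0.215). It also ended with the replicate number as a block (0.057). Against control replicate 1 alone the log2 fold change of ENO3 was 0.40. PGK1, PGAM1, ENO1 and PKM, the remaining enzymes from the phosphoglycerates to pyruvate, had log2 fold changes between -0.25 and -0.58 and did not pass. Their 95% intervals were -0.79 to 0.11, -0.66 to 0.15, -1.12 to -0.03 and -1.08 to 0.02, and a difference of the size seen for GAPDH lay within those of ENO1 and PKM. Reads of TPI1, GAPDH and PGAM1 can be shared with processed pseudogenes; counts assigned to those pseudogenes were at most 1.85% of the parent's, but reads lost to ambiguity were not analysed here.

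In the pentose phosphate branch 1 of 6 genes was lower in U251 control, 1 was higher and 4 did not pass. PGLS, the lactonase of the oxidative arm, stood at 29.2, 16.2 and 15.8 scaled FPKM in U87 control and 14.0, 11.1 and 9.21 in U251 control (log2 fold change -0.84, SE 0.21, adjusted p = 0.00448). RPIA, the ribose phosphate isomerase, was slightly higher in U251 control, at 11.8 ± 1.48 against 8.36 ± 1.15 scaled FPKM (log2 fold change 0.50, SE 0.17, adjusted p = 0.0224). That call ended without U87 control replicate 2 or 3 or U251 control replicate 1 (adjusted p = 0.0761, 0.079 and 0.0886). Against control replicate 1 alone the log2 fold change of RPIA was 0.47. PGD, a dehydrogenase of the oxidative arm, and RPE, TKT and TALDO1 of the non-oxidative arm did not pass; with the replicate number as a block RPE did (log2 fold change -0.32, adjusted p = 0.0487). TKT, transketolase, had a log2 fold change of 0.35 and a 95% interval from -0.62 to 1.31; without U87 control replicate 1 it was higher in U251 control (1.38, adjusted p = 0.000497).

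At pyruvate entry 1 kinase gene was higher in U251 control, 2 were lower and 1 did not pass. PDK4, the kinase induced by fasting in muscle and liver, lies on chr7:95583499-95596516 (GRCh38, minus strand) and stood at 0.415, 0.365 and 0.381 scaled FPKM in U87 control and 1.85, 3.12 and 3.20 in U251 control. It was 7.01-fold higher in U251 control (log2 fold change 2.81, SE 0.28, adjusted p = 9.7e-07), on 24 to 28 reads per U87 control library and 144 to 283 per U251 control library. Against control replicate 1 alone the log2 fold change was 2.15. PDK1 and PDK3 were lower in U251 control, by log2 fold changes of -1.50 (SE 0.36, adjusted p = 0.00267) and -1.19 (SE 0.26, adjusted p = 0.00146). Against replicate 1 alone PDK1 and PDK3 stood at -0.68 and -0.42, which were smaller differences. PDK2 did not pass (log2 fold change -0.56, 95% interval -1.12 to -0.0038). PDK4 made up 2.71% to 7.92% of the summed kinase level in U87 libraries and 26.8% to 35.7% in U251 libraries, while the sum was 11.6 ± 2.77 scaled FPKM in U87 control and 8.03 ± 1.49 in U251 control.

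The subunits of the complex did not move together. PDHA1, the catalytic subunit that the kinases phosphorylate, was lower in U251 control, at 18.3, 14.0 and 13.9 scaled FPKM against 37.9, 22.1 and 22.9 (log2 fold change -0.84, SE 0.20, adjusted p = 0.00233). DLAT, the acetyltransferase core, was higher, at 16.5, 14.9 and 16.5 against 10.1, 9.62 and 8.33 (log2 fold change 0.77, SE 0.13, adjusted p = 0.00013). PDHB, the other subunit of the first enzyme, and DLD, the shared dihydrolipoamide dehydrogenase, did not pass, with log2 fold changes of 0.32 (95% interval -0.12 to 0.76) and 0.36 (95% interval 0.02 to 0.71). Without U87 control replicate 1 PDHB was higher in U251 control (0.63, adjusted p = 0.00233). With the replicate number as a block DLD passed (0.39, adjusted p = 0.0448).

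**Figure D3:**
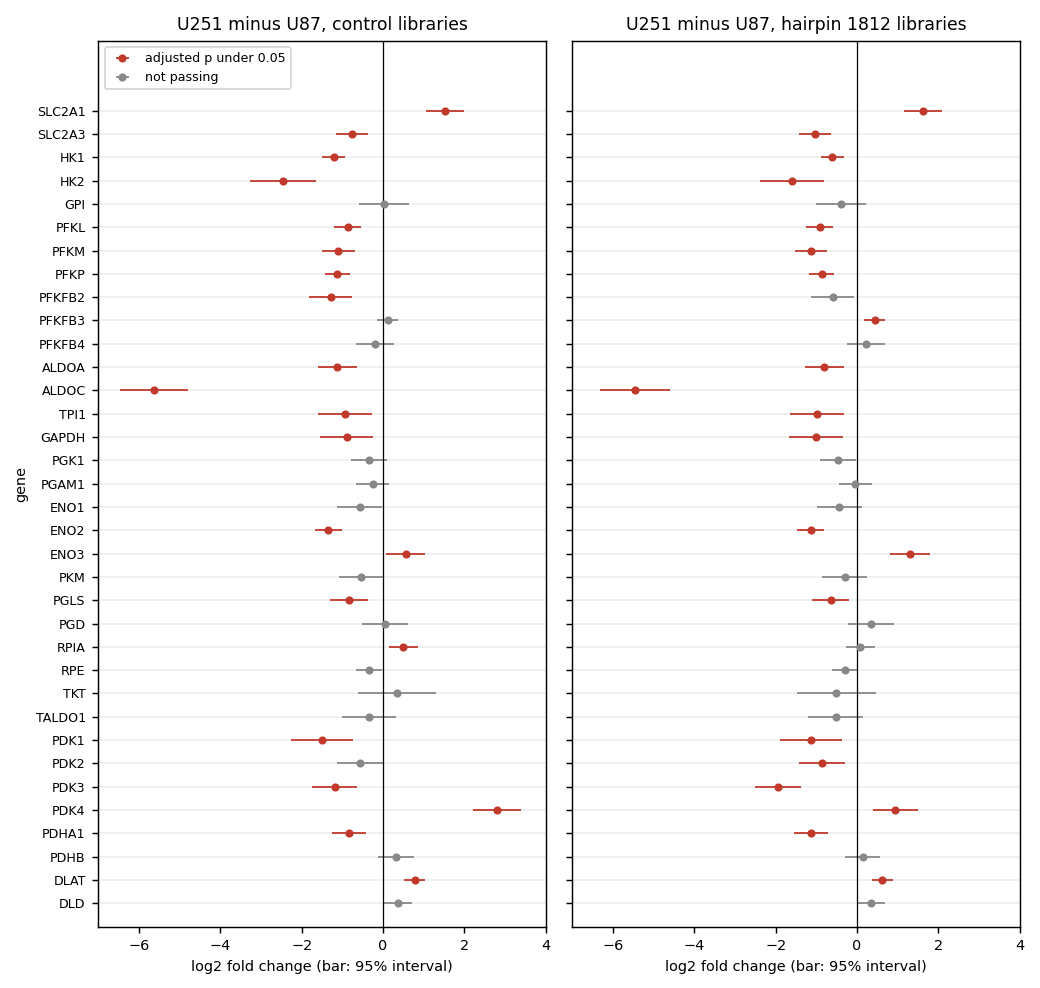
Points are log2 fold changes of U251 over U87 for the 35 genes, in control libraries on the left and in libraries labelled 1812 on the right, with 95% intervals from the edgeR fit; red points have an adjusted p under 0.05. ALDOC lies far to the left in both panels, at -5.64 and -5.46, and PDK4 to the right in both, at 2.81 and 0.94.

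The same difference was read in libraries that the control comparison did not use, U251 with hairpin 1812 against U87 labelled 1812, a comparison added after the data were seen. There, 5 genes were higher and 16 lower in U251, where 51.7% of all tested genes passed (26.4% higher and 25.3% lower), and the median log2 fold change was -0.53 against 0.02 over all genes tested. The control libraries' calls were found again for 19 genes in the same direction, 4 higher and 15 lower, which is 90.5% of each list; over all genes, 76.0% of those passing in controls passed again in the same direction. PFKFB2 and RPIA passed only in controls, and PFKFB3 (log2 fold change 0.43, adjusted p = 0.00847) and PDK2 (-0.86, adjusted p = 0.0134) only in the libraries labelled 1812. ALDOC was 44.2-fold lower, SLC2A1 3.08-fold higher and HK2 3.01-fold lower in U251. GAPDH and TPI1 did not overlap between the lines here and were 2.02-fold and 1.97-fold lower in U251 (adjusted p = 0.0125 and 0.0164). Against control replicate 1 alone in each line the median log2 fold change over the 35 genes was -0.68, beside 0.04 over all genes tested. GPI, PGK1, PGAM1, ENO1, PKM, TALDO1 and PDK2, which did not pass over all controls, stood between -0.48 and -1.16 there, and DLD at 0.93. Without U87 control replicate 1 the control comparison gave 7 higher, with GPI, TKT and PDHB among them, and 15 lower. In that fit 58.7% of all tested genes passed (29.2% higher and 29.5% lower). The lines also differ in many markers, with SOX2 at 0.0693 scaled FPKM in U87 control and 69.0 in U251 control and COL1A1 at 71.5 and 0.858.

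Of 43 further genes of uptake, glycolysis, the pentose phosphate branch and pyruvate entry, 29 were tested; 10 were higher and 10 lower in U251 control, beside the 24.0% and 26.0% of all tested genes given above. TIGAR, a fructose bisphosphatase that lowers glycolysis, was lower (0.747 against 2.02, log2 fold change -1.44, adjusted p = 1.8e-05). The mitochondrial pyruvate carrier subunits split, with MPC1 at 16.4 against 8.68 scaled FPKM (log2 fold change 0.92) and MPC2 at 20.1 against 39.4 (log2 fold change -0.97). SLC2A10 had 195, 291 and 233 reads in the U251 controls and 0, 0 and 1 in the U87 controls. PC, pyruvate carboxylase, was lower in U251 control (1.22 against 3.70 scaled FPKM, log2 fold change -1.60), as was HKDC1, a hexokinase-like gene (1.64 against 8.18, log2 fold change -2.31). Of 14 regulators, 13 were tested; EGLN3, a prolyl hydroxylase that marks hypoxia-inducible factors for degradation, and VHL were higher in U251 control (log2 fold changes 3.85 and 0.36), and EPAS1, which encodes HIF-2 alpha, HIF1AN, MLXIP and MYC were lower (-1.44, -0.68, -0.53 and -0.39). Genes in this paragraph outside the 4 largest changes in each direction were chosen after their values were seen.

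The second question was what the hairpins change. In U87 libraries labelled 1812, 3 of the 35 genes were higher than in U87 control, 2 were lower and 30 did not pass, a share near that of all tested genes, of which 13.6% passed (5.86% higher and 7.74% lower). At an unadjusted p under 0.05 the counts were 6 and 3, and DESeq2 gave 6 and 3. Over all 16841 tested genes those counts were 2127 and 2869 unadjusted, and 1381 and 1847 by DESeq2. PDK4 stood at 0.763, 0.983 and 1.05 scaled FPKM in the libraries labelled 1812, above all 3 controls, and was 2.40-fold higher (log2 fold change 1.26, SE 0.28, adjusted p = 0.0108). RPIA stood at 12.7, 12.5 and 13.3 scaled FPKM against 9.69, 7.74 and 7.65 (log2 fold change 0.62, SE 0.17, adjusted p = 0.0256). DLAT stood at 12.3, 12.2 and 13.0 against 10.1, 9.62 and 8.33 (log2 fold change 0.42, SE 0.13, adjusted p = 0.0407). No value of the groups overlapped for these 3 genes.

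HK1 was lower in the U87 libraries labelled 1812, at 91.6, 114 and 97.0 scaled FPKM (log2 fold change -0.45, SE 0.13, adjusted p = 0.0342). ENO3 was lower too, at 0.748, 0.616 and 0.683 (log2 fold change -0.89, SE 0.23, adjusted p = 0.0215). Neither overlapped the controls. Against control replicate 1 alone the log2 fold changes of PDK4, HK1, ENO3, RPIA and DLAT were 1.16, -0.55, -0.77, 0.40 and 0.30. Leaving out single U87 libraries ended the calls of RPIA and DLAT for 5 of the 6 libraries each, all but control replicate 1 (adjusted p = 0.0575 to 0.107 and 0.0765 to 0.172), of HK1 for control replicates 2 and 3 and 1812 replicates 1 and 3 (adjusted p = 0.0779, 0.0791, 0.118 and 0.125), and of ENO3 for control replicate 2 and 1812 replicates 2 and 3 (adjusted p = 0.115, 0.0797 and 0.0684). The PDK4 call held without each library in turn and ended in a fit of the U87 libraries only (adjusted p = 0.11) and with limma on log2(FPKM + 1), where the rise was 0.42 (adjusted p = 0.132), a scale that understates changes of genes under 1 FPKM.

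Which abundant genes count as changed in U87 turned on U87 control replicate 1. The median log2 fold change over the 35 genes was 0.22 against all 3 controls and -0.14 against control replicate 1 alone, beside -0.03 and 0.02 over all genes tested. Without control replicate 1, 19 genes were higher and 4 lower in the libraries labelled 1812, among them GAPDH (1.06), TKT (1.73) and TALDO1 (1.27), all given as log2 fold changes; in that fit 46.7% of all tested genes passed (23.5% higher and 23.2% lower). Against that replicate alone, PKM (-0.81), PGD (-0.84) and ENO1 (-0.50) had negative log2 fold changes. PDK1 (1.20), PDK3 (1.11), RPE (0.50) and DLD (0.47) had positive ones there. Neither reading was used for the counts above.

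**Figure D4:**
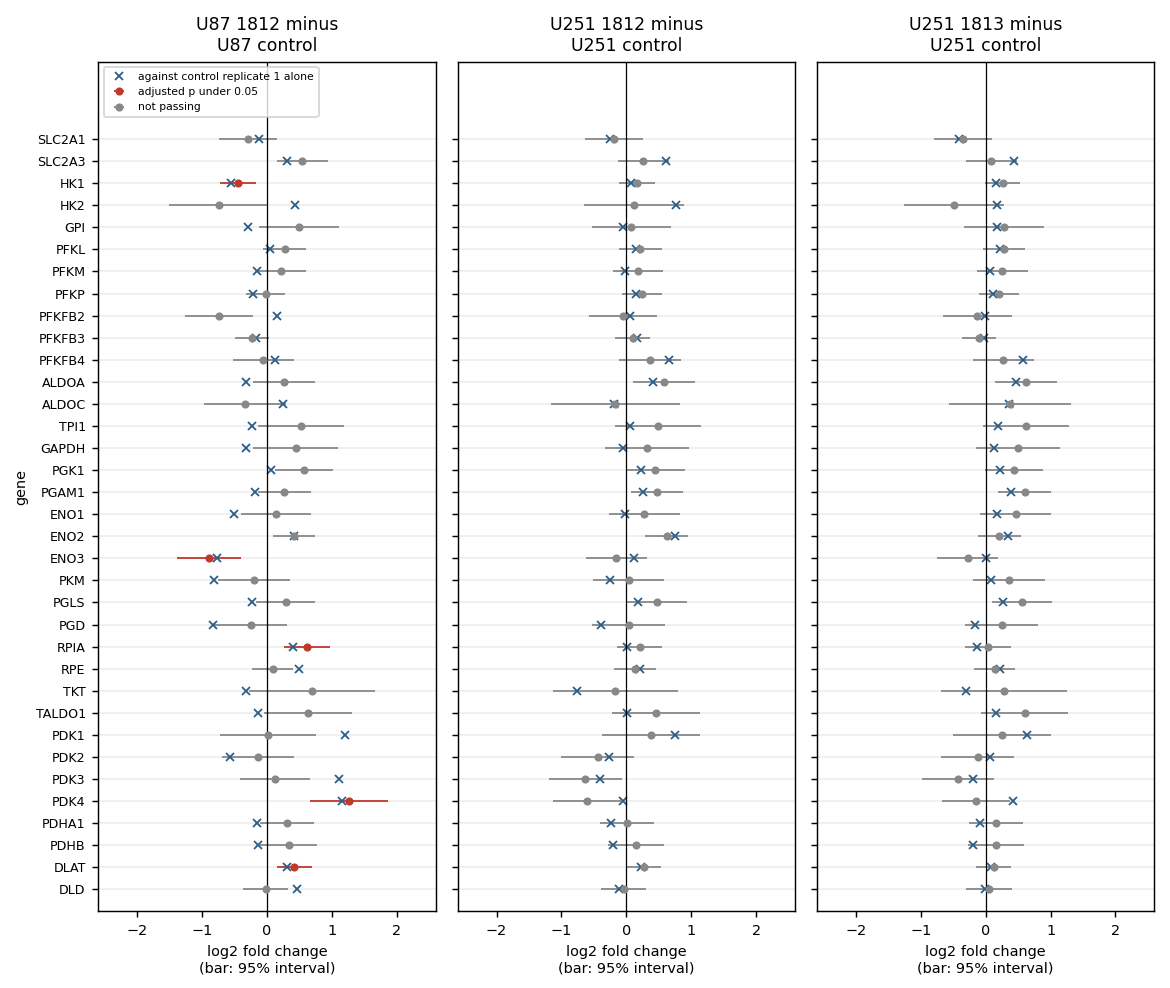
Points are log2 fold changes of each hairpin group over the controls of its line for the 35 genes, with 95% intervals from the edgeR fit; red points have an adjusted p under 0.05 and crosses are the values against control replicate 1 alone. In U87, 5 points are red, PDK4 the farthest to the right at 1.26, and crosses lie left of many points; in U251 no point is red.

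In U251 none of the 35 genes passed with hairpin 1812 by edgeR, where 0.992% of all tested genes did (0.410% higher and 0.582% lower). At an unadjusted p under 0.05, 6 of the 35 were higher and 2 lower, beside 1280 and 1396 of all 16841 tested genes. DESeq2 called ENO2 alone of the 35, beside 303 higher and 511 lower of all tested genes. ENO2 stood at 28.1, 30.0 and 29.1 scaled FPKM with hairpin 1812 and at 17.2, 20.0 and 19.3 in U251 control, without overlap (log2 fold change 0.62, SE 0.16, adjusted p = 0.0706). Against control replicate 1 alone the log2 fold change of ENO2 was 0.76. ALDOA stood at 66.6, 62.2 and 58.4 scaled FPKM with hairpin 1812 against 46.8, 41.4 and 37.1 (log2 fold change 0.58, adjusted p = 0.231). The median log2 fold change over the 35 genes was 0.17, and 0.05 against control replicate 1 alone, beside 0.01 over all genes tested.

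With hairpin 1813 none of the 35 genes passed by edgeR, where 0.0475% of all tested genes did (0.0178% higher and 0.0297% lower). DESeq2 called none of the 35, beside 70 higher and 181 lower of all tested genes. At an unadjusted p under 0.05, 3 of the 35 were higher and 0 lower, beside 1038 and 1177 of all 16841 tested genes. The 3 higher were ALDOA (log2 fold change 0.63, 95% interval 0.15 to 1.10), PGAM1 (0.60, 0.19 to 1.00) and PGLS (0.56, 0.10 to 1.01). With hairpin 1812 ALDOA, PGAM1 and PGLS stood at 0.58, 0.47 and 0.47, and both hairpin groups share the 3 controls. Against control replicate 1 alone these 3 genes stood lower, at 0.47, 0.38 and 0.27 with hairpin 1813. With hairpin 1812 they stood at 0.41, 0.25 and 0.18 there. The median log2 fold change with hairpin 1813 was 0.24, and 0.16 against control replicate 1 alone. The median half-width of the 95% intervals was 0.47 on the log2 scale, so changes below about that size could not be told from 0 for the typical gene. These intervals are not adjusted for the number of genes tested, and larger changes, such as ALDOA at 0.63, did not pass.

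Compared directly, hairpins 1812 and 1813 differed in none of the 35 genes by edgeR, where 0.0772% of all tested genes passed (0.0475% higher and 0.0297% lower). DESeq2 gave none of the 35, beside 82 higher and 40 lower of all tested genes. At an unadjusted p under 0.05, 1 of the 35 was higher and 0 lower with 1812, beside 627 and 417 of all 16841 tested genes. The 1 higher gene was ENO2, with a log2 difference of 0.41 (95% interval 0.08 to 0.74, adjusted p = 0.646). The widest difference was 0.61 for HK2 (95% interval -0.17 to 1.38), with 11.3, 14.7 and 14.1 scaled FPKM with hairpin 1812 and 6.04, 10.3 and 9.98 with 1813. The median was -0.08 over the 35 genes.

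The effect of the label 1812 was compared between the lines by the difference of the log2 fold changes, U87 minus U251. PDK4 alone passed among the 35 genes, where 4.51% of all tested genes passed (2.19% higher and 2.32% lower). It was 2.40-fold higher in U87 and stood at a log2 fold change of -0.60 in U251 (95% interval -1.13 to -0.08, adjusted p = 0.256), and the difference was 1.87 (SE 0.37, adjusted p = 0.0152). In U251 the hairpin 1812 libraries held 1.82, 1.55 and 2.01 scaled FPKM, within or below the control range of 1.85 to 3.20. With control replicate 1 alone PDK4 stood at 1.16 in U87 and -0.05 in U251, and the difference was smaller, at 1.21. In that fit the difference was 1.52 for PDK3 and -0.73 for ALDOA, against 0.76 and -0.31 over all controls. Of the other genes of the pathway, BPGM (0.89) and RBKS (-1.68) differed in effect between the lines, and of the regulators EPAS1 (0.99). The mean whole-gene level of LAMP2 was not lower in the U87 libraries labelled 1812 than in their controls. That mean included control replicate 1, with 2893 LAMP2 reads against 4252 and 4714 in replicates 2 and 3. A fall of LAMP2 like that with hairpin 1812 in U251 was thus not shown in U87 at the level of the whole gene.

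In U87 control, and far less in U251 control, levels of the 35 genes differed between replicate 1 and the other replicates. In U87 control, 7 of the 35 genes were at least 2-fold higher in replicate 1 than in the mean of replicates 2 and 3, and 4 at least 2-fold lower, together 31.4% of the genes beside 36.4% of all tested genes. TKT was at 94.1 scaled FPKM in replicate 1 and 23.0 and 22.6 in the others, a log2 difference of 2.05. GPI (1.41), TALDO1 (1.39), GAPDH (1.36), TPI1 (1.35), ENO1 (1.10) and PKM (1.04) were higher in replicate 1 as well, and PDK1 (-1.56), HK2 (-1.54), PDK3 (-1.31) and PFKFB2 (-1.20) lower. In U251 control only TKT differed by 2-fold (89.1 against 45.8 and 42.6), 2.86% of the genes beside 13.1% of all tested genes. In the U87 and U251 libraries labelled 1812 none of the 35 did, beside 11.5% and 6.51% of all tested genes, and with hairpin 1813 2 did, 5.71% beside 8.63%. Across the 35 genes the log2 difference had a Pearson correlation of -0.31 in U87 control and -0.32 in U251 control with log2 exonic length, given as a description, since the genes share libraries and depth. The part of exonic length or of the count-weighted length in these differences was not tested.

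**Figure D5:**
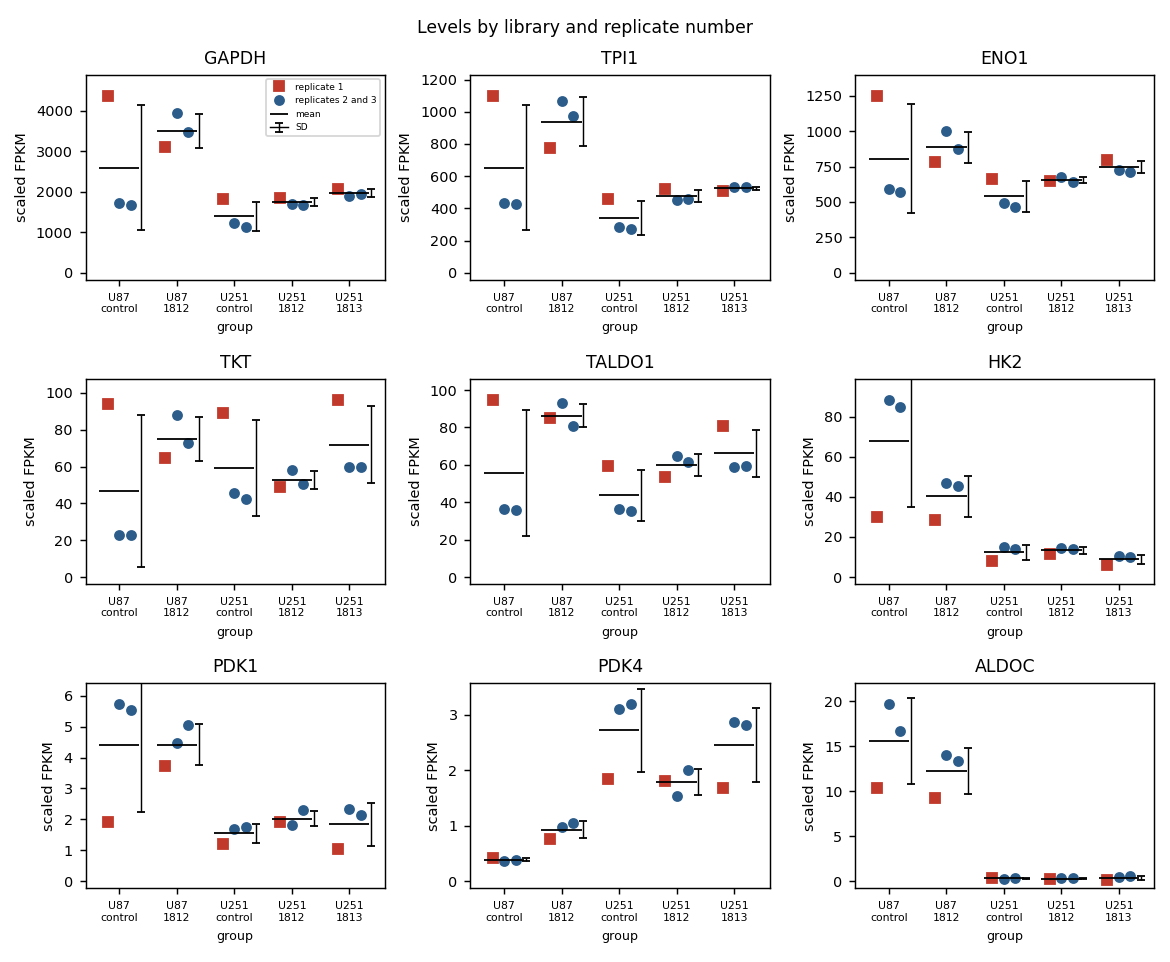
Scaled FPKM of 9 genes in each library by group; squares are replicate 1, circles replicates 2 and 3, lines the mean and bars the SD of 3 libraries. In U87 control, replicate 1 is far above the others for GAPDH, TPI1, ENO1, TKT and TALDO1 and below them for HK2, PDK1 and ALDOC, while PDK4 is between 0.365 and 0.415 in all 3.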

How the data were processed

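Total RNA depleted of ribosomal RNA was made into libraries with random primers and dUTP strand marking, per the labels' protocols, which name more than 1 extraction method and sequencer without assigning them to libraries. Per the submitters' processing notes, reads were handled with bcl2fastq 2.17.1.14, cutadapt 1.9.1, HISAT2 2.0.1 and HTSeq 0.6.1 on GRCh38; bedtools 2.17.0 and DESeq2 are also named. The strand setting of the counting and the annotation release are not given in the sources used here. A single deposited table holds raw counts and FPKM per gene and library; recomputing the deposited FPKM from the counts and exonic lengths gave the same values within 0.005.

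The counts were tested with edgeR 4.0.16 in R 4.3.3: TMM scaling, filterByExpr, and quasi-likelihood F tests, two-sided, in 1 fit of 15 libraries with 5 group means. That left 16841 genes, 10 residual and 4.52 prior degrees of freedom; the common biological CV was 0.2255. SE is the absolute log2 fold change divided by the square root of F. Alternatives were DESeq2 1.42.0, RLE size factors, no low-count filter, only the groups compared, control replicate 1 alone, a replicate block, each library left out, and limma 3.58.1 on log2(FPKM + 1) or (FPKM + 0.1), with a mean of at least 1 FPKM or no filter. The fit was tested on simulated data with known changes. Intervals cover the spread between libraries.

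Replicate numbers come from the sample titles. Deviations of same-numbered libraries from their group means correlated at 0.197 to 0.389 between U251 1813 and U251 control. For the controls of the lines the range was 0.263 to 0.422. A fit with the replicate number as a block was therefore also run. It put a shared effect of each replicate number on all 15 libraries, also on groups whose numbers did not correlate. Between the controls of the lines, other-numbered libraries reached 0.270 for replicate 2 and 0.297 for replicate 3, beside 0.263 and 0.318 for the same number. Pairing by number is thus not shown for those libraries. In the other comparisons at least 1 pair was under 0.1.

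The members and gene lists were chosen with earlier results of these data known. Every member that passed is named with its value in the comparisons set by the design; for the added comparison of the lines in libraries labelled 1812 and for the alternatives, examples and counts are given. Of the other pathway genes, the 4 largest changes in each direction or those stated as chosen later. The self-test values are not quoted.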

Additional observations from a re-analysis of the deposited data

Results flagged for a closer look

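PDK4, the pyruvate dehydrogenase kinase, drew attention because the effect of the label 1812 differed between the lines by a test of the difference itself. The log2 fold change was 1.26 in U87 and -0.60 in U251, a difference of 1.87 (SE 0.37, adjusted p = 0.0152 by edgeR). All 3 U87 libraries labelled 1812 were above all 3 U87 controls, while in U251 the groups overlapped. Reads were few in U87, at 24 to 28 per control library and 54 to 76 per library labelled 1812. Leaving out each library in turn gave differences of 1.74 to 2.08, each still passing. The call ended with limma on log2(FPKM + 1) (0.84, adjusted p = 0.0665). With control replicate 1 alone the log2 fold change was 1.16 in U87 and -0.05 in U251, and the difference was smaller, at 1.21. Control replicates 2 and 3 of U251 held 3.12 and 3.20 scaled FPKM against 1.85 in replicate 1. Their part in the difference was not tested beyond the fits named here.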

How the results depend on the processing

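Of the 432 checks of single gene calls, 360 kept direction and side of the threshold, 72 kept direction and no longer passed, and 0 reversed. Those with control replicate 1 alone rest on 1 control library per line. For U87 libraries labelled 1812 (3 higher, 2 lower), DESeq2 gave 6 higher and 3 lower. No low-count filter gave 4 (PDK4, PGK1, TKT, TALDO1) and 2 (HK2, PFKFB2), and the U87 groups alone 0 higher and 0 lower. Limma on log2(FPKM + 1) gave 1 higher, and without its filter 1 and 1. Leaving out 1 library gave 1 to 19 higher and 0 to 4 lower. With hairpin 1812 in U251 (0 and 0), DESeq2 gave 1 higher (ENO2), a fit of the 2 groups alone 2 higher (ENO2, ALDOA) and 1 lower (PDK3), and a replicate block 1 higher (ENO2, adjusted p = 0.0276). Between the control lines (5 higher, 16 lower), no low-count filter gave 3 higher and 18 lower (PKM and ENO1 added) and the 2 groups alone 3 and 12; leaving out 1 library gave 4 to 7 higher and 14 to 18 lower. For the difference between the lines in the effect of 1812 (1 higher, 0 lower), limma on log2(FPKM + 1), with or without its filter, gave 0 higher and 1 lower (HK1). Limma on log2(FPKM + 0.1) and DESeq2 gave 1 lower (HK1), and leaving out 1 library gave 1 to 6 higher and 0 to 3 lower. Counts for hairpin 1813 and for 1812 against 1813 stayed at 0 in every alternative run, from 0 to 0 with a library left out. The 19 higher came without U87 control replicate 1, where 46.7% of all tested genes passed. For most of these alternatives, and for the block below, the share of all tested genes passing is not given. Those counts are therefore not set against that background and are no result about the 35 genes. The cause of the changes in these counts was not tested.

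The block gave 5 higher and 17 lower between the control lines, adding DLD and RPE and losing ENO3, and 0 for hairpin 1813. It changed no other call there. Numbers did not pair the U87 libraries labelled 1812 with their controls, and the block gave 4 higher and 3 lower. Depth limited ALDOC in U251 and PDK4 and ENO3 in U87, all under 100 reads per library. ENO3 had 74, 99 and 73 reads in U87 control and 50, 45 and 40 in the U87 libraries labelled 1812. With 3 libraries a group, the median half-width of the unadjusted 95% intervals was about 0.47 on the log2 scale. That is not the limit of a call, since ENO2 at 0.62 with hairpin 1812 in U251 did not pass and DLAT at 0.42 in U87 did.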

Other observations

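Other pathway genes moved in the U87 libraries labelled 1812 that lie next to the steps described above. BPGM, which makes bisphosphoglycerate, was higher (19.4 against 10.6 scaled FPKM, log2 fold change 0.88, SE 0.16, adjusted p = 0.00435 by edgeR), as was PRPS1, which turns ribose 5-phosphate into a nucleotide precursor (57.7 against 39.5, log2 fold change 0.55, adjusted p = 0.0453). RBKS, ribokinase, PDPR, a regulator of pyruvate dehydrogenase phosphatase, and PC, pyruvate carboxylase, were lower (log2 fold changes -0.97, -0.73 and -0.65). In all, 2 of 29 tested were higher and 3 lower, beside 13.6% of all tested genes. Of 13 regulators tested, EPAS1 (0.52) and MYC (0.50) were higher and ARNT (-0.66), the partner of the hypoxia-inducible factors, was lower. In U251 with hairpin 1812, MYC alone of the regulators passed (14.5 against 8.99 scaled FPKM, log2 fold change 0.68, SE 0.13, adjusted p = 0.0285). None of the 29 further pathway genes passed in U251 with either hairpin by edgeR. At an unadjusted p under 0.05 the counts were 5 higher and 3 lower with 1812 and 1 higher and 5 lower with 1813. DESeq2 gave 1 higher and 2 lower, and 0 higher and 1 lower. The counts over all tested genes at these thresholds are given above for each hairpin.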
